A study of Homo sapiens with 12 samples.

Results

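The EGR, KLF and IER early response genes described here are 10 genes, EGR1, EGR2, EGR3, KLF2, KLF4, KLF6, KLF10, IER2, IER3 and IER5, taken by gene name from the 60671 named rows of the count table. All 10 were among the 16994 genes with enough counts to be tested. RNA was sequenced from HCT116, an established human colorectal carcinoma line described as wild type, in 4 groups of 3 samples. These were cells in DMEM without cystine for 24 h, cells in full DMEM for 24 h, cells in DMEM without cystine for 48 h and cells in full DMEM for 48 h, all with fetal bovine serum and antibiotics. Cystine, the oxidised dimer of cysteine, is the form in which most cultured cells take up this amino acid. A wash and a change of medium are described for the deprived cells alone, so this step and the lack of cystine cannot be told apart. Whether the 3 samples of each group are separate cultures is not stated. The p-values therefore rest on sample-to-sample spread that could be technical alone.

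Early response genes are transcribed within minutes of a signal such as a growth factor, serum or a stress, without new protein synthesis, and most of their mRNAs are short-lived. The EGR genes are textbook targets of serum response factor (SRF), which binds CArG boxes together with ELK factors that the kinase ERK phosphorylates. EGR1, EGR2 and EGR3 encode zinc finger transcription factors that bind GC-rich sites, and their corepressors NAB1 and NAB2 limit them. KLF2, KLF4, KLF6 and KLF10 are zinc finger factors of the Krüppel-like family, which bind GC-rich and CACCC sites. In endothelium KLF2 is driven by the kinase ERK5 through MEF2 factors, and in the gut KLF4 marks differentiated epithelial cells. IER2, IER3 and IER5 are small proteins without zinc fingers that are induced with the same kinetics.

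The promoters of EGR1, EGR2 and KLF2 are shown because these genes stood at the ends of the range described below, with EGR1 and EGR2 the lowest in deprived over control cells at 48 h and KLF2 the highest of the 10. RefSeq sequences on GRCh38.p14 were matched by symbol for 7 of the 10 genes, and positions -250 to -11 before the start of transcription are printed on the strand of the gene. In GENCODE 29 the EGR1 and KLF2 stretches lie upstream of the gene, and the EGR2 stretch lies in an intron of its longer transcripts. The rank explains the choice of genes only. Of the 3 EGR2 starts, the start printed is alone in holding a CArG box in its window. Capitals mark CArG boxes, MEF2 boxes and matches to GCGNGGGCG, the EGR binding site.
EGR1 promoter, chr5:138465229-138465468, plus strand: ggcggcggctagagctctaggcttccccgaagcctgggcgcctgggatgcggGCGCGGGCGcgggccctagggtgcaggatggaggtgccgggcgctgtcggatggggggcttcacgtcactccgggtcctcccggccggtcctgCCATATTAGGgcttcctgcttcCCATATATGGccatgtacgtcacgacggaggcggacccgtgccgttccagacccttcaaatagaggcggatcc
EGR2 promoter (the third of 3 starts in RefSeq), chr10:62816377-62816616, minus strand: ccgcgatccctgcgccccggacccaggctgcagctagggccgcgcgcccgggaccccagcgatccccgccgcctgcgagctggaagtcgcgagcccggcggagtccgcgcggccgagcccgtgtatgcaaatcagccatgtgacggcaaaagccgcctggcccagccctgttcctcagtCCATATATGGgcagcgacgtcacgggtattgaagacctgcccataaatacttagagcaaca
KLF2 promoter, chr19:16324576-16324815, plus strand: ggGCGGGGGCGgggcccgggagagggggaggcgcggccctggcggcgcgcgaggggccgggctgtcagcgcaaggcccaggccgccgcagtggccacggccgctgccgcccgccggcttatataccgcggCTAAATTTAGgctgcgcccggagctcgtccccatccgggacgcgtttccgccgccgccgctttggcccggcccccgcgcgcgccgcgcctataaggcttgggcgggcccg

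Motifs were searched on both strands of 300-base windows that also took the first 50 transcribed bases. EGR1 held 2 CArG boxes, at positions -105 to -96 (CCATATTAGG) and -83 to -74 (CCATATATGG) counted from the start, and EGR2 held 1 at -71 to -62 with the second of these spellings. EGR2 has 3 windows, and those of its other 2 starts held no CArG box. Of the 9 windows of the 7 genes 2 held a CArG box, as did 1.3% of 34796 promoter windows. KLF2 had a MEF2 box at -120 to -111 (CTAAATTTAG), a motif found in 1 of the 9 windows and in 3.01% of all windows. Matches to GCGNGGGCG lay in 5 of the 9 windows, 1 each of EGR1, EGR2 (not the window printed), KLF2, KLF4 and KLF6, and in 9.43% of windows, and in each of these 5 genes they overlapped a match to the KLF-type site CCNCNCCC, which 56.1% of windows held. CCGGAA, the core of ETS sites, lay in IER2 and IER5 and in 17.2% of windows, and TGACNNNGC, the antioxidant response core, in EGR2 and 13.3% of windows. None of the 7 matched TGACGTCA, the site of CREB and ATF factors (1.84% of windows), TGATGNAA, the core bound by ATF4 dimers (3.63%), the AP-1 site TGANTCA (7.73%) or TATAAA (11.6%). The matches describe these letters and do not show binding.

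Total estimated counts lay between 19146108 and 24179533 per sample, and no 2 samples of a group agreed within counting error. The 7 markers of colon carcinoma epithelium summed to 5082 to 5212 CPM in deprived and 3683 to 4089 CPM in control cells at 24 h, and to 4734 to 5275 CPM in deprived and 3985 to 4398 CPM in control cells at 48 h. Within this sum 5 markers were called higher at 48 h and 1, EPCAM, lower (log2 fold change -0.29 ± 0.048), against 33.5% and 34.9% of all tested genes. Of 5 fibroblast markers 2 were tested, and the sum was 15.8 to 20.1 CPM in deprived and 31.6 to 34.1 CPM in control cells at 24 h, and 19.4 to 22.2 CPM in deprived and 44.1 to 49.2 CPM in control cells at 48 h. Of 6 leukocyte markers only CD68 was tested, a lysosomal protein that is not limited to leukocytes, and PTPRC and CD3E were at 0 in all samples. Their sum was 10.97 to 11.97 CPM in deprived and 4.56 to 5.29 CPM in control cells at 24 h, and 22.6 to 27.0 CPM in deprived and 10.4 to 10.9 CPM in control cells at 48 h. The 4 endothelial markers summed to at most 2.41 CPM in any sample. The epithelial, fibroblast and leukocyte sums differed between the media without overlap, and their part in the results was not tested.

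Values in CPM are counts scaled to library size, with TMM factors. Levels of different genes are compared as CPM per kilobase of the length in the table. IER3 stood highest in every group, at 538 ± 13.9 CPM per kb in deprived and 285 ± 5.47 in control cells at 24 h, and at 598 ± 30.2 in deprived and 541 ± 33.5 in control cells at 48 h (SD, n = 3). EGR2 and EGR3 stood lowest, with means between 0.394 CPM per kb (EGR3, control cells at 24 h) and 3.29 CPM per kb (EGR2, control cells at 48 h). The order below IER3 was IER2, KLF10, KLF6, KLF4, EGR1, KLF2 and IER5 in deprived cells at 24 h, where the samples of KLF4 and EGR1 overlapped, as did those of EGR2 and EGR3. In control cells at 24 h the order was IER2, KLF10, EGR1, KLF6, IER5, KLF4, KLF2, EGR2 and EGR3, and no neighbours overlapped. In deprived cells at 48 h it was IER2, KLF10, EGR1, KLF6, KLF4, KLF2, IER5, EGR3 and EGR2, with overlap of EGR1 with KLF6 and of EGR3 with EGR2. In control cells at 48 h EGR1 stood second, and its samples overlapped with those of IER2. After IER2 came KLF10, KLF4, KLF6, IER5, KLF2, EGR2 and EGR3, with overlap of KLF4 and KLF6.

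**Figure D1:**
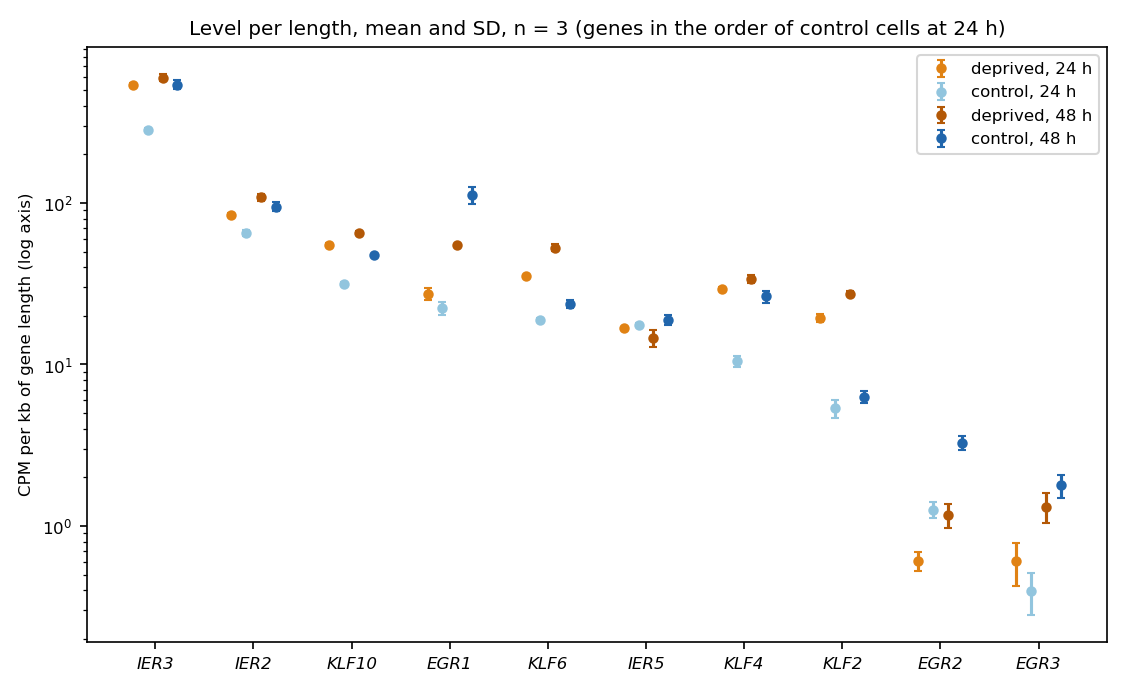
Mean level of each of the 10 genes in CPM per kb of gene length (log axis) with SD, n = 3, in deprived and control cells at 24 h and 48 h. IER3 is highest in all 4 groups, EGR2 and EGR3 are lowest, and EGR1 reaches 112 CPM per kb in control cells at 48 h.

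The comparison of deprived with control cells asked which of these transcripts respond when cystine is withheld. The 10 genes did not all change in the same direction. All 4 KLF transcripts, IER2 and IER3 were higher in deprived cells at both times, while EGR2 was lower at both times and EGR1 was slightly higher at 24 h but lower at 48 h. At 24 h, 8 of the 10 were called higher, against 28.8% of all tested genes, and 1 lower, against 26.9%, by edgeR's quasi-likelihood test at an adjusted p under 0.05. At 48 h, 6 were higher, against 33.5% of all genes, and 3 lower, against 34.9%. The counts of lower genes are not above those shares, so they are not a result about the 10 genes. The same 6 genes were higher at both times, as were 22.6% of all genes, and 21.3% of all genes were lower at both. Changes of at least 2-fold were seen for KLF2 and KLF4 upward and EGR2 downward at 24 h, when 4.84% and 6.26% of all genes changed that much in these directions. At 48 h they were seen for KLF2 and KLF6 upward and EGR1 and EGR2 downward, against 8.59% and 15.3% of all genes. Without regard to the test, the samples of the 2 media did not overlap for 7 genes higher in deprived cells and 2 lower at 24 h, against 32.1% and 30.7% of all genes, and for 5 higher and 3 lower at 48 h, against 34.2% and 35.8%. The median log2 fold change of the 10 was 0.71 at 24 h and 0.17 at 48 h, beside medians of -0.0061 and -0.016 over all tested genes. The RNA is bulk RNA, so fewer cells that express a gene and less of its RNA per cell cannot be told apart.

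**Figure D2:**
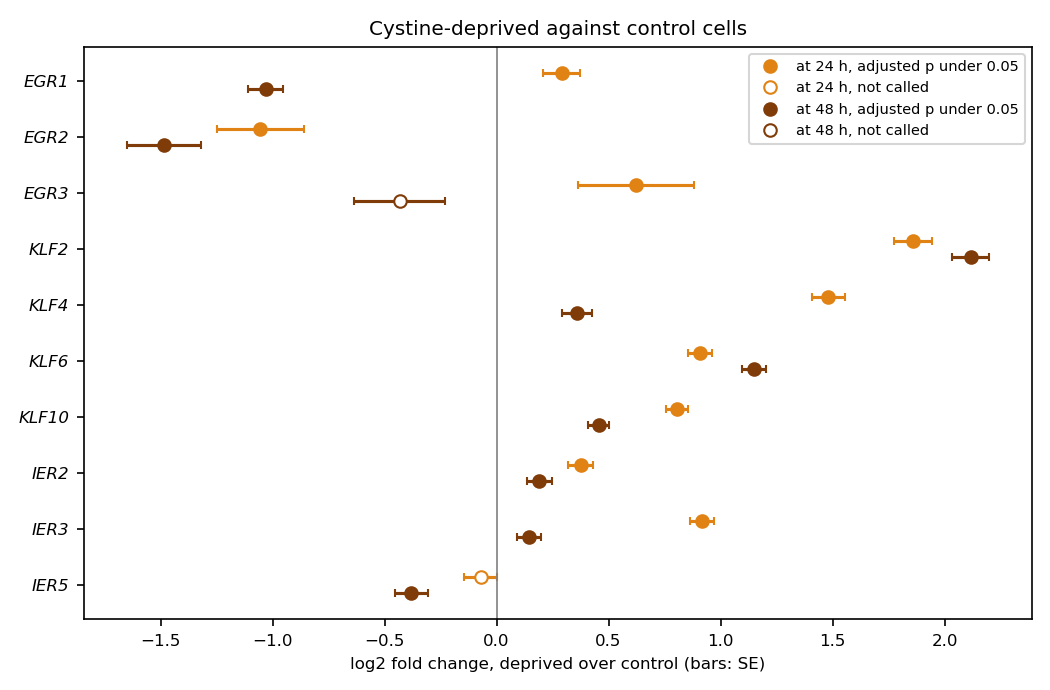
Log2 fold change of each gene, deprived over control, at 24 h and 48 h, with SE as bars and filled points at an adjusted p under 0.05. The KLF genes, IER2 and IER3 lie right of 0 at both times, EGR2 lies left at both, and EGR1 changes side, at -1.03 at 48 h and 0.29 at 24 h.

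EGR1 (chromosome 5, 138465490 to 138469315, plus strand, GRCh38), the most studied member of its family, was measured at 80.3, 84.0 and 93.7 CPM in deprived cells at 24 h, against 72.9, 62.8 and 75.2 CPM in control cells. All 3 deprived samples lay above the control samples, by a small margin. The log2 fold change with its SE was 0.29 ± 0.084 (adjusted p = 0.00623). At 48 h EGR1 stood at 173, 174 and 168 CPM in deprived cells, against 313, 397 and 341 CPM in control cells. The deprived samples were close to each other and far below the lowest control sample. EGR1 was thus lower in deprived cells at this time, with a log2 fold change of -1.03 ± 0.079 (adjusted p = 7.75e-10).

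EGR2 (chromosome 10, 62811996 to 62919900, minus strand), known for its part in myelination and hindbrain patterning, was a low transcript, with 34 to 229 estimated counts per sample. It had 1.80, 1.47 and 1.93 CPM in deprived cells at 24 h, against 4.02, 3.59 and 3.18 CPM in control cells. At 48 h it had 3.57, 3.76 and 2.69 CPM in deprived cells, against 8.69, 10.5 and 8.90 CPM in control cells. The groups did not overlap at either time. EGR2 was lower in deprived than in control cells, with log2 fold changes of -1.05 ± 0.19 (adjusted p = 0.000129) at 24 h and -1.48 ± 0.17 (adjusted p = 1.68e-07) at 48 h.

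EGR3, which acts in muscle spindle development and in T cells, had 27 to 203 estimated counts per sample. At 24 h it was at 2.15, 2.42 and 3.68 CPM in deprived cells, against 2.36, 1.59 and 1.38 CPM in control cells. The groups overlapped, and the log2 fold change was 0.62 ± 0.26, just past the threshold (adjusted p = 0.0483). The call was lost without deprived replicate 3 at 24 h (adjusted p = 0.297), control replicates 3 or 2 at 24 h (0.175 and 0.132), control replicate 1 at 48 h (0.0561) or deprived replicate 2 at 48 h (0.0528). It was also lost with upper-quartile scaling (0.0807), library totals alone (0.0927) or a fit of only the groups compared (0.0734). At 48 h EGR3 was at 7.35, 5.47 and 5.05 CPM in deprived cells, against 8.27, 9.28 and 6.61 CPM in control cells, again with overlap, and it was not called (log2 fold change -0.43 ± 0.20, 95% interval -0.86 to -0.0046, adjusted p = 0.0681). It was called lower without deprived replicate 1 at 48 h (0.0221), control replicate 3 at 48 h (0.0375) or deprived replicate 3 at 24 h (0.0482), and likewise with upper-quartile scaling (0.0428), without a filter on low counts (0.0382) or in a fit of only the groups compared (0.0464).

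**Figure D3:**
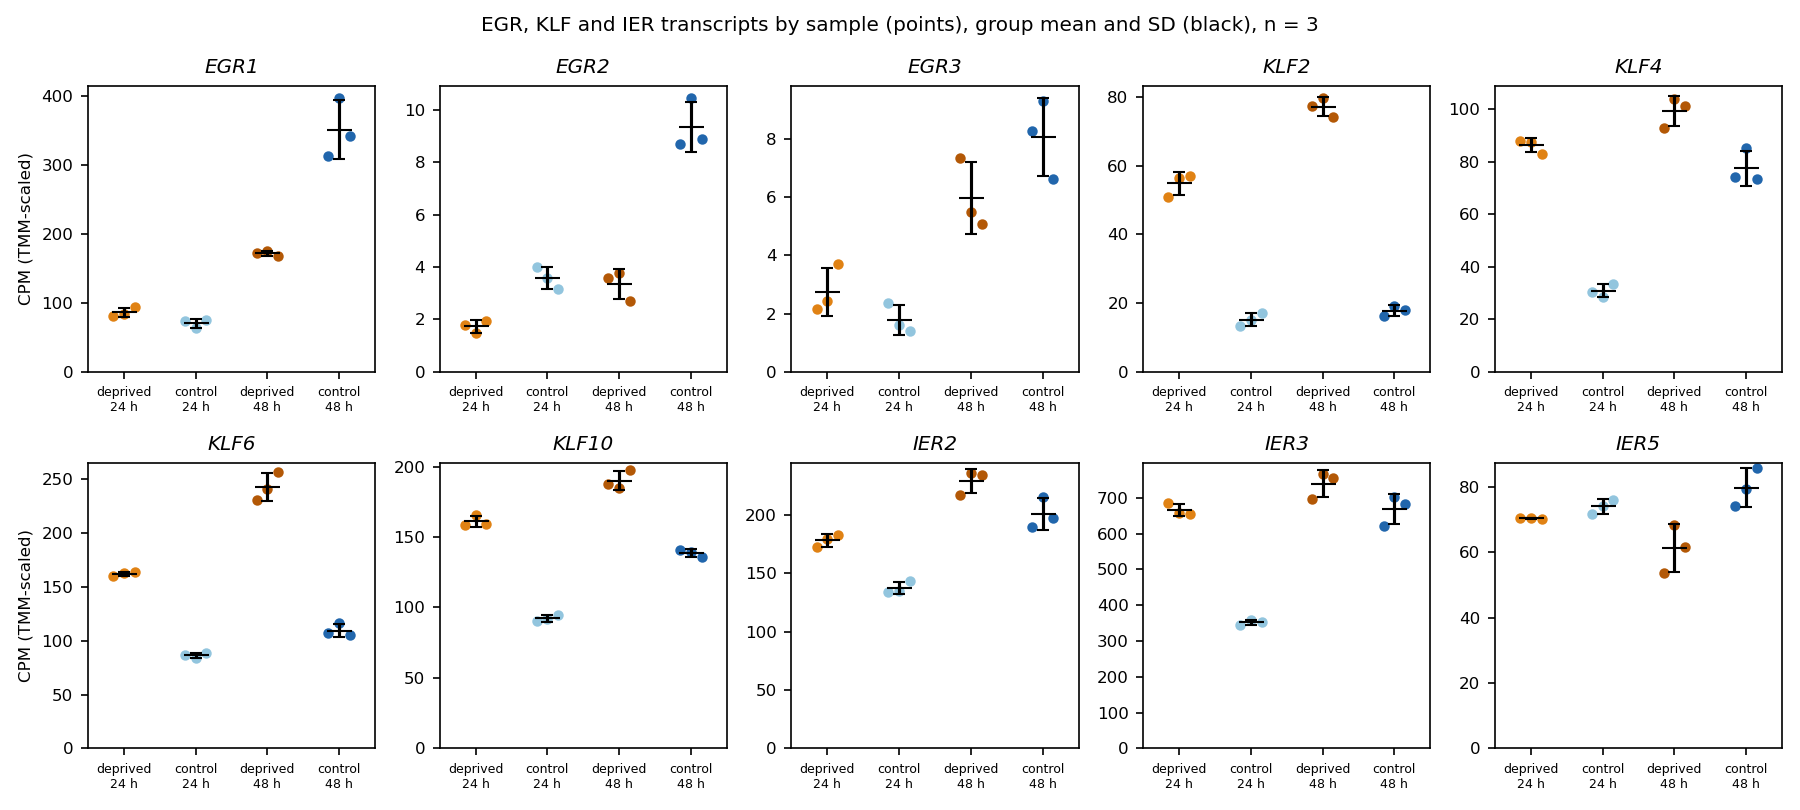
CPM of each of the 10 genes in every sample (points) with the group mean and SD in black, n = 3, on axes that start at 0. EGR1, EGR2 and EGR3 have their highest means in control cells at 48 h, whereas KLF2 and KLF6 lie higher in every deprived sample than in any control sample.

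KLF2 (chromosome 19, 16324817 to 16327874, plus strand), a factor known from endothelium and from resting T cells, had the largest log2 fold change of the 10 at both times. It had 51.0, 56.5 and 57.0 CPM in deprived cells at 24 h, against 13.3, 14.99 and 17.1 CPM in control cells. The values at 48 h were 77.4, 79.7 and 74.2 CPM in deprived cells, against 16.1, 19.3 and 17.9 CPM in control cells. Every deprived sample lay above every control sample of either time. KLF2 rose 3.63-fold at 24 h (log2 fold change 1.86 ± 0.085, adjusted p = 1.56e-12) and 4.34-fold at 48 h (2.12 ± 0.082, adjusted p = 3.32e-14).

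KLF4 (chromosome 9, 107484852 to 107490482, minus strand), a factor of differentiated gut epithelium, had 87.8, 87.6 and 83.1 CPM in deprived cells at 24 h, against 30.5, 28.6 and 33.4 CPM in control cells. At 48 h it had 93.0, 104 and 101 CPM in deprived cells, against 74.0, 85.1 and 73.2 CPM in control cells. The groups did not overlap at either time, but the highest control sample at 48 h lay within the range of the deprived samples at 24 h. The rise was 2.79-fold at 24 h (log2 fold change 1.48 ± 0.072, adjusted p = 4.02e-12) and 1.28-fold at 48 h (0.36 ± 0.067, adjusted p = 9.55e-05).

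KLF6 (chromosome 10, 3775996 to 3785281, minus strand), described as a tumour suppressor, had 159.7, 163 and 164 CPM in deprived cells at 24 h, against 86.7, 84.0 and 88.5 CPM in control cells. After 48 h the values were 231, 241 and 257 CPM in deprived cells, against 107, 116 and 105 CPM in control cells. As with KLF2, no control sample of either time reached a deprived sample. KLF6 rose 1.88-fold at 24 h (log2 fold change 0.91 ± 0.054, adjusted p = 7.39e-11) and 2.22-fold at 48 h (1.15 ± 0.053, adjusted p = 5.2e-13).

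KLF10, also called TGF-beta inducible early gene, had 158, 166 and 159 CPM in deprived cells at 24 h, against 90.2, 91.5 and 94.8 CPM in control cells. At 48 h it had 188, 185 and 198 CPM in deprived cells, against 141, 139.6 and 136 CPM in control cells. The groups were apart at both times and the samples within each were tight. KLF10 rose 1.75-fold at 24 h (log2 fold change 0.81 ± 0.048, adjusted p = 7.47e-11) and 1.37-fold at 48 h (0.46 ± 0.047, adjusted p = 6.09e-08).

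IER3 (chromosome 6, 30743199 to 30744554, minus strand), an ERK-dependent regulator of cell survival, was the most abundant of the 10. It had 685, 656 and 655 CPM in deprived cells at 24 h, against 345, 358 and 353 CPM in control cells, and rose 1.89-fold (log2 fold change 0.92 ± 0.053, adjusted p = 4.41e-11). By 48 h it was at 697, 767 and 754 CPM in deprived cells, against 622, 701 and 683 CPM in control cells. Here 1 deprived sample lay inside the control range, and the log2 fold change was 0.14 ± 0.052 (adjusted p = 0.0197). This call was lost without control replicate 1 at 48 h (adjusted p = 0.11), deprived replicate 2 at 48 h (0.0794) or deprived replicate 3 at 48 h (0.0572), and with upper-quartile scaling (0.113).

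IER2 (chromosome 19, 13150415 to 13154908, plus strand), a nuclear protein that modulates transcription, had 172, 179 and 183 CPM in deprived cells at 24 h, against 134, 135 and 144 CPM in control cells. At 48 h the samples had 217, 236 and 234 CPM in deprived cells, against 189, 216 and 197 CPM in control cells. The groups did not overlap, although at 48 h the lowest deprived sample was barely above the highest control sample. IER2 rose by small amounts, with log2 fold changes of 0.38 ± 0.057 (adjusted p = 1.57e-05) at 24 h and 0.19 ± 0.056 (adjusted p = 0.00527) at 48 h.

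IER5 (chromosome 1, 181088712 to 181092899, plus strand), which is known to promote the activity of the heat shock factor HSF1, was not higher at either time. It had 70.3, 70.6 and 70.3 CPM in deprived cells at 24 h, against 71.7, 74.2 and 76.0 CPM in control cells. The deprived samples lay just below the control samples, and the difference was not called (log2 fold change -0.07 ± 0.073, 95% interval -0.22 to 0.08, adjusted p = 0.426). At 48 h it had 53.7, 68.4 and 61.6 CPM in deprived cells, against 74.0, 79.4 and 85.8 CPM in control cells. IER5 was lower in deprived cells at that time, with a log2 fold change of -0.38 ± 0.073 (adjusted p = 0.000123).

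Most of these transcripts were also higher at 48 h than at 24 h, in both media. In control cells EGR1 at 48 h was 4.98-fold the level at 24 h, EGR3 4.49-fold, EGR2 2.59-fold and KLF4 2.51-fold, each without overlap of the samples given above. Of all 16994 genes, EGR1 had the smallest p in this comparison, with a log2 fold change of 2.32 ± 0.084 (adjusted p = 3.21e-12). In control cells 8 of the 10 were higher at 48 h than at 24 h, against 12.7% of all genes, and 0 were lower, against 10.4%. Of the 10 genes, 0 were also lower by DESeq2 and 0 at an unadjusted p under 0.05, since all 10 log2 fold changes were positive. The samples of the 2 times did not overlap for these 8 genes, nor for 19.9% of all genes in the higher and 18.3% in the lower direction. Over all genes 2151 were higher and 1760 lower, a balance that turned with library totals alone as the scale, to 1697 higher and 2580 lower, where the counts for the 10 genes were again 8 and 0. The 4 genes named were all the members that rose at least 2-fold, as 0.783% of all genes did. KLF2 (log2 fold change 0.23 ± 0.093, adjusted p = 0.076) and IER5 (0.11 ± 0.072, adjusted p = 0.311) were not called in control cells. The KLF2 call appeared without control replicate 3 at 24 h (adjusted p = 0.0221) or control replicate 1 at 48 h (0.036). It also appeared in all samples with a mean of 5 CPM required (0.0459) or with the replicate number added to the fit (0.0462).

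In deprived cells 9 of the 10 were higher at 48 h than at 24 h, against 20.7% of all genes, and 1, IER5, was lower, against 21.8%. For all 10 the samples of the 2 times did not overlap in the direction of the call, as for 25.4% of all genes in the higher and 25.9% in the lower direction. EGR3 changed most (log2 fold change 1.11 ± 0.22, adjusted p = 0.000541), followed by EGR1 (1.00 ± 0.081), EGR2 (0.94 ± 0.19), KLF6 (0.58 ± 0.053) and KLF2 (0.49 ± 0.074, adjusted p = 2.69e-05). KLF4 (0.20 ± 0.067, adjusted p = 0.0183), IER3 (0.15 ± 0.052, adjusted p = 0.025) and IER5 (-0.20 ± 0.073, adjusted p = 0.0327) changed by little. The KLF4 call was lost without deprived replicate 3 at 24 h or replicates 2 or 3 at 48 h (adjusted p up to 0.0819), that of IER3 without replicates 2 or 3 of either time (up to 0.106), and that of IER5 without any deprived replicate at 24 h or replicates 1 or 3 at 48 h (up to 0.182). Both media shared a rise in 8 genes, EGR1, EGR2, EGR3, KLF4, KLF6, KLF10, IER2 and IER3, a pattern that 3.7% of all genes had.

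**Figure D4:**
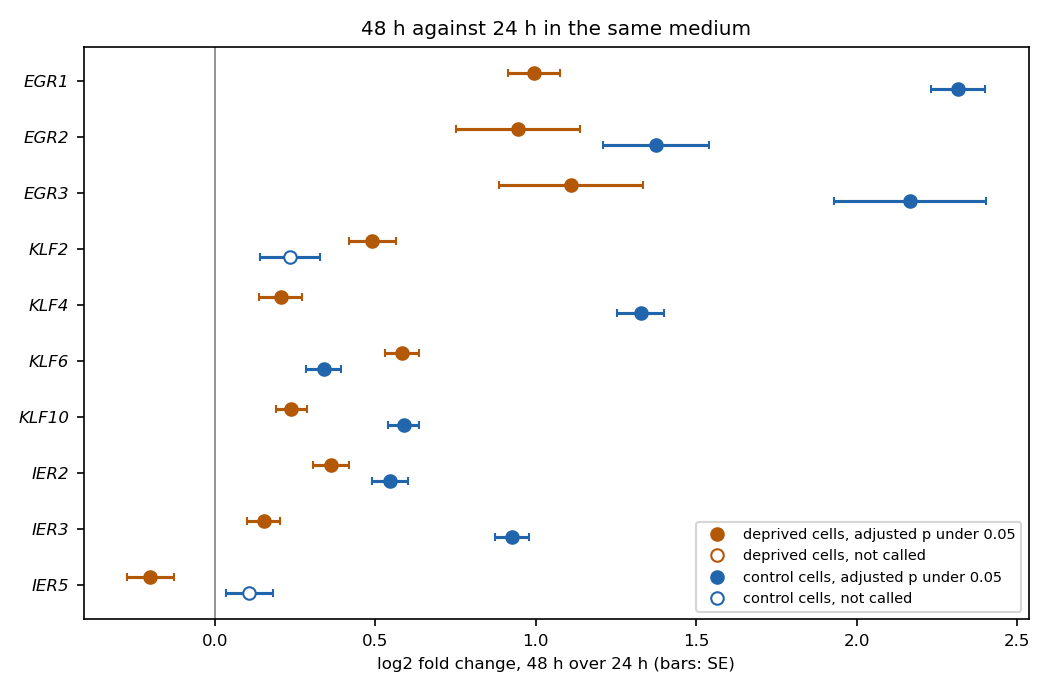
Log2 fold change of each gene, 48 h over 24 h, within deprived cells and within control cells, with SE as bars and filled points at an adjusted p under 0.05. EGR1, EGR3, KLF4 and IER3 moved less in deprived than in control cells, with EGR1 at 1.00 in deprived and 2.32 in control cells.

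The interaction term tested whether the deprivation effect at 48 h differed from that at 24 h. It was lower at 48 h for 6 of the 10, EGR1, EGR3, KLF4, KLF10, IER3 and IER5, against 19.2% of all genes, and higher for 1, KLF6, against 16.4%. EGR1 had the largest difference on the log2 scale, -1.32 ± 0.11 (adjusted p = 3.97e-08). It was lower in deprived than in control cells at 48 h and higher at 24 h, although it rose from 24 h to 48 h in both media. KLF4 followed, at -1.12 ± 0.098 (adjusted p = 4.56e-08), and remained higher in deprived cells at both times. The call for EGR3 (-1.06 ± 0.33, adjusted p = 0.0177) was lost without deprived replicate 3 at 24 h (adjusted p = 0.0797) or control replicate 3 at 24 h (0.0531), and that for KLF6 (0.24 ± 0.076, adjusted p = 0.0175) without deprived replicate 3 at 48 h (0.0526). The call for IER5 (-0.31 ± 0.10, adjusted p = 0.0249) was lost without deprived replicate 2 at 24 h (0.0504), control replicate 1 at 24 h (0.0621), deprived replicate 1 at 48 h (0.0604) or control replicate 3 at 48 h (0.078). KLF2 (0.26 ± 0.12, 95% interval 0.0079 to 0.50, adjusted p = 0.102), EGR2 (-0.43 ± 0.26, -0.97 to 0.11, adjusted p = 0.211) and IER2 (-0.18 ± 0.08, -0.35 to -0.02, adjusted p = 0.0803) were not called. KLF2 was called without control replicate 1 at 24 h (0.0321) or with library totals alone as the scale (0.0429). IER2 was called without control replicate 1 at 48 h (0.0401). It was also called with a mean of 5 CPM required (0.0328) or with the replicate number added to the fit (0.0401).

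The genes most alike in pattern were found by the root-mean-square difference of log2(CPM + 1) over the 12 samples, each gene centred on its own mean. For EGR1 they were BHLHE40 (0.31) and ANGPTL4 (0.35), for EGR2 IRF7 (0.23) and TPBG (0.25) and for EGR3 PIM1 (0.32) and BHLHE40 (0.33). BHLHE40, a clock-related repressor, was thus near both EGR1 and EGR3, with 85.2 ± 1.89 CPM in deprived and 81.5 ± 10.7 CPM in control cells at 24 h, and 143 ± 10.9 CPM in deprived and 235 ± 10.8 CPM in control cells at 48 h (SD, n = 3). KLF2 was most like LAT2 (0.097) and FICD (0.10), KLF4 like DDIT4 (0.15) and ERRFI1 (0.15), KLF6 like N4BP3 (0.057) and KDM6B (0.059) and KLF10 like TMEM39A (0.083) and PTPRH (0.09). IER2 was most like PLD3 (0.052) and RAB11FIP5 (0.061), IER3 like ARID3B (0.12) and DUSP1 (0.14) and IER5 like RPS10 (0.048) and RPS19 (0.05), the last a pair of ribosomal protein genes with near-identical copies that can share reads. The nearest genes of the 3 EGR members were further away (0.23 to 0.35) than those of the KLF and IER members (0.048 to 0.15). The distance is not scaled for a gene's own spread, and EGR2 and EGR3 averaged below the 5 CPM required of the genes compared with them. Whether the EGR pattern is distinct was therefore not tested. Among the 10 themselves, IER3 and KLF10 were closest (0.15), EGR1 was closest to EGR3 (0.34), and EGR2 and KLF2 were furthest apart (1.51).

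Of 15 further EGR, KLF and IER genes 13 were tested, and 3 were higher and 3 lower in deprived cells at 24 h, against 28.8% and 26.9% of all tested genes, with a median log2 fold change of 0.20. Those higher were KLF5, a factor of proliferating gut epithelium (1.09 ± 0.056), KLF7 (0.26 ± 0.071) and KLF13 (0.22 ± 0.058), and those lower were KLF8 (-1.12 ± 0.23), KLF12 (-0.66 ± 0.11) and IER5L (-0.31 ± 0.073). The count of higher genes was 5 without deprived replicate 1 of either time. At 48 h, 5 were higher and 5 lower (median 0.10), against 33.5% and 34.9% of all genes, or 3 and 3 where a mean of 5 CPM was required. These counts are near those shares. The called genes were led upward by KLF15 (1.53 ± 0.24), KLF5 (1.42 ± 0.055) and EGR4 (1.21 ± 0.46, at under 1 CPM in every sample) and downward by IER5L (-1.73 ± 0.073), KLF12 (-1.27 ± 0.12) and KLF14 (-1.03 ± 0.44). KLF14 was also low, and its groups overlapped, with 0.264, 0.974 and 0.546 CPM in deprived cells, against 1.62, 1.10 and 0.918 CPM in control cells (adjusted p = 0.0456). IER5L, a relative of IER5, had 62.1, 66.0 and 54.0 CPM in deprived cells at 48 h, against 183, 221 and 198 CPM in control cells.

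Early response genes of other families also went in both directions. Of 36, all tested, 25 were higher and 5 lower in deprived cells at 24 h (median log2 fold change 0.81), against 28.8% and 26.9% of all tested genes. At 48 h 22 were higher and 10 lower (median 0.44), against 33.5% and 34.9%. The counts of lower genes are not above those shares. The lower count at 24 h was 3 without control replicate 3 at 24 h. FOSL1 (2.66 ± 0.081) and JUN (2.63 ± 0.072), subunits of the AP-1 factor, and PPP1R15A (2.51 ± 0.073), which directs dephosphorylation of eIF2alpha, led the rises at 24 h. PPP1R15A (3.49 ± 0.075), JUN (3.04 ± 0.069) and the EGF receptor ligand HBEGF (2.60 ± 0.10) led them at 48 h. FOS, the partner of JUN, had the lowest log2 fold change of the 36 at both times. At 48 h it had 7.13, 6.36 and 6.38 CPM in deprived cells, against 37.1, 54.0 and 47.2 CPM in control cells. Its log2 fold changes were -0.70 ± 0.14 (adjusted p = 0.000321) at 24 h and -2.80 ± 0.13 (adjusted p = 5.27e-13) at 48 h. The orphan nuclear receptor NR4A2 (-0.55 ± 0.07) and the kinase SGK1 (-0.50 ± 0.18) were also lower at 24 h, and NR4A2 (-0.93 ± 0.066) and JUNB (-0.78 ± 0.068) at 48 h.

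**Figure D5:**
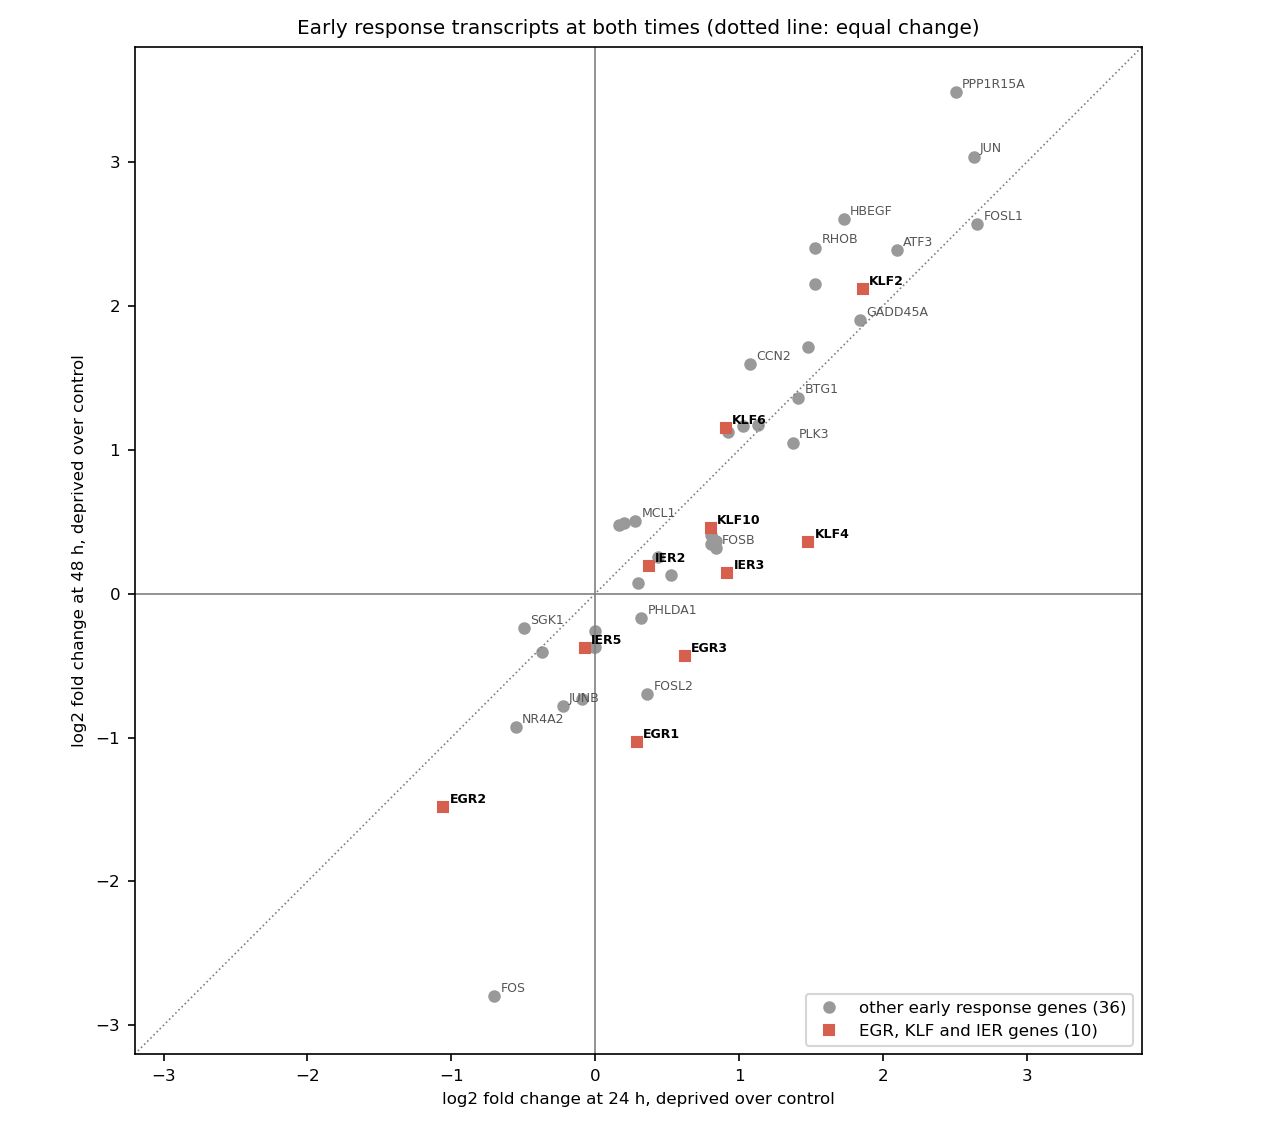
Log2 fold change, deprived over control, at 24 h (x axis) and 48 h (y axis) for the 10 EGR, KLF and IER genes (squares) and 36 other early response genes (circles, some without a name where labels would overlap). KLF2 lies at the upper right, as do JUN and FOSL1, and EGR1 and EGR2 lie below 0 at 48 h, as do FOS, JUNB and NR4A2.

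Of 21 genes for kinases and factors upstream, 10 were higher and 5 lower at 24 h (median log2 fold change 0.14), against 28.8% and 26.9% of all genes. At 48 h 11 were higher and 7 lower (median 0.22), against 33.5% and 34.9%. The counts of lower genes are near those shares. SRF itself was higher, at 76.2, 80.1 and 86.5 CPM in deprived cells at 48 h, against 49.6, 57.0 and 48.8 CPM in control cells (log2 fold change 0.64 ± 0.071, adjusted p = 1.39e-07). SRF was chosen after its values were seen. Among the MEF2 factors, which act on KLF2 and KLF4 in endothelium, MEF2C was lower (-2.03 ± 0.093 at 24 h and -2.41 ± 0.097 at 48 h) while MEF2A (0.74 ± 0.057 and 0.65 ± 0.056) was higher at both times. MEF2D (0.57 ± 0.065) and MAP2K5, the kinase that activates ERK5 (0.55 ± 0.09), were among the largest rises at 24 h. Among those at 48 h were ELK3 (0.79 ± 0.045) and RPS6KA4 (0.70 ± 0.06). MAPK7, which encodes ERK5, was not called at 24 h (0.047 ± 0.099) and was higher at 48 h (0.35 ± 0.096). It was named after its values were seen. Besides MEF2C, the genes furthest below control cells at 24 h were RPS6KA1 (-0.43 ± 0.058) and MAPK3, which encodes ERK1 (-0.34 ± 0.073). At 48 h they were MAPK3 (-0.86 ± 0.073) and RPS6KA5 (-0.58 ± 0.076), although RPS6KA5 was higher at 24 h (0.50 ± 0.073).

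NAB1 and NAB2, the EGR corepressors, were lower in deprived cells at 48 h. NAB1 had 44.7, 39.6 and 41.8 CPM in deprived cells at 48 h, against 88.1, 75.7 and 79.1 CPM in control cells, and NAB2 had 64.6, 71.6 and 67.2 CPM in deprived cells, against 108, 128 and 112 CPM in control cells. The groups did not overlap, and the log2 fold changes were -0.94 ± 0.066 (adjusted p = 2.09e-10) and -0.78 ± 0.071 (adjusted p = 1.02e-08). Of the 5 corepressor genes in the list, 1 was higher and 3 lower at 48 h (median -0.14), against 33.5% and 34.9% of all tested genes. CTBP2, a corepressor bound by several KLF proteins, was higher (0.33 ± 0.045), and CTBP1 was lower (-0.14 ± 0.049). At 24 h 2 were higher, CTBP2 (0.62 ± 0.046) and CTBP1 (0.12 ± 0.049), and 1 lower, NAB1 (-0.18 ± 0.065), with a median of 0.045. Over all tested genes 28.8% were higher and 26.9% lower at 24 h, and with 5 genes the list counts are near those shares. The list counts at 24 h were also not stable. The count of 2 was 1 with RLE, upper-quartile or library-total scaling, without a filter, with a mean of 5 CPM required, and without deprived replicates 1, 2 or 3 at 24 h, control replicates 2 or 3 at 24 h or deprived replicate 2 at 48 h. The count of 1 was 2 with upper-quartile or library-total scaling, without a filter, with a mean of 5 CPM required, in a fit of only the groups compared and without control replicate 2 at 48 h, and it was 0 without control replicate 2 at 24 h.

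Of 6 genes for proteins that bind AU-rich elements, the destabilising sequences of many early response mRNAs, 4 were higher and 1 lower at 24 h (median log2 fold change 0.29). Over all tested genes 28.8% were higher and 26.9% lower at that time. The called genes were ZFP36 (0.95 ± 0.079), HNRNPD (0.57 ± 0.05), ZFP36L1 (0.31 ± 0.06) and ELAVL1 (0.26 ± 0.055, named after its values were seen, to complete the count) upward and ZFP36L2 (-0.67 ± 0.063) downward. At 48 h 1 was higher, ZFP36L1 (0.45 ± 0.059), or 2 without control replicate 2 at 48 h, and 3 were lower, ZFP36L2 (-1.38 ± 0.064), KHSRP (-0.32 ± 0.053) and HNRNPD (-0.14 ± 0.05), with a median of -0.022. The shares of all tested genes were 33.5% higher and 34.9% lower at 48 h. With 6 genes the counts are not a result about the list. ZFP36, itself an early response gene that speeds mRNA decay, had 56.7, 57.0 and 56.0 CPM in deprived cells at 24 h, against 28.8, 28.0 and 31.1 CPM in control cells.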

How the data were processed

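The data are RNA-seq of 12 samples of HCT116 cells, grouped and numbered by their titles. The authors deposited a table named as gene counts, beside a gene length. The labels name a TPM table instead. The deposited values were taken as estimated counts without normalization, because they are not all whole and their sums differ between samples, which TPM sums would not. The submitters' processing notes name fastp, HISAT, RSEM and GRCh38, with no roles or versions. Annotation release and strandedness are not given in the sources used here. Of 60987 rows, 316 without a gene name were left out. Counts were rounded, genes passing filterByExpr (minimum count 10, minimum total 15) were kept, and edgeR 4.0.16 (R 4.3.3) was fitted with TMM scaling and 4 group means over all 12 samples, followed by its quasi-likelihood test with Benjamini-Hochberg adjustment over all tested genes. Each ± after a log2 fold change is an SE, obtained from the fold change and the F statistic, and 95% intervals use the t distribution of that test. The members and lists were chosen with earlier results of these data known. The genes named are the members, up to 3 called genes with the largest change per list, time and direction, and the 2 genes most like each member, from those averaging 5 CPM or more. The procedure was tested on simulated counts. Alternatives were RLE, upper-quartile and library-total scaling, DESeq2 1.42.0, no filter, a filter at 5 CPM, only the compared groups, a replicate block, and leaving out each sample. Gene positions are from GENCODE 29, which the authors may not have used.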

Additional observations from a re-analysis of the deposited data

Results flagged for a closer look

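For the following genes the interaction term found that the deprivation effect differed between 48 h and 24 h, as log2 fold changes with SE from edgeR's quasi-likelihood test. EGR1 stood at -1.03 ± 0.079 at 48 h and 0.29 ± 0.084 at 24 h, a difference of -1.32 ± 0.11 (adjusted p = 3.97e-08). For EGR3 the effect was -0.43 ± 0.20 at 48 h and 0.62 ± 0.26 at 24 h, which differ by -1.06 ± 0.33 (adjusted p = 0.0177). KLF4 stood at 0.36 ± 0.067 at 48 h and 1.48 ± 0.072 at 24 h, a difference of -1.12 ± 0.098 (adjusted p = 4.56e-08). For KLF6 the effect was 1.15 ± 0.053 at 48 h and 0.91 ± 0.054 at 24 h, which differ by 0.24 ± 0.076 (adjusted p = 0.0175). KLF10 stood at 0.46 ± 0.047 at 48 h and 0.81 ± 0.048 at 24 h, a difference of -0.35 ± 0.067 (adjusted p = 0.000483). For IER3 the effect was 0.14 ± 0.052 at 48 h and 0.92 ± 0.053 at 24 h, which differ by -0.77 ± 0.074 (adjusted p = 1.53e-07). IER5 stood at -0.38 ± 0.073 at 48 h and -0.07 ± 0.073 at 24 h, a difference of -0.31 ± 0.10 (adjusted p = 0.0249). The deprivation effect on EGR1 changed direction between the times with a call at each. EGR3 had opposite signs, but neither its call at 24 h nor its lack of one at 48 h was stable, since 8 of the alternatives ended the first and 6 called it lower at 48 h.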

How the results depend on the processing

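Of the log2 fold changes of the 10 genes recomputed under the alternatives, 934 kept their direction and their side of the threshold, 31 no longer passed it, 15 newly passed it and 0 reversed. The calls lost or gained were of EGR3, IER2, IER3, IER5, KLF2, KLF4 and KLF6. With a mean of at least 5 CPM required, EGR2 and EGR3 were not tested, and 0 members were lower at 24 h. With library totals alone as the scale, 2 members had a higher deprivation effect at 48 h than at 24 h. Leaving out single samples gave 7 to 8 members higher and 1 lower at 24 h, 5 to 6 higher and 3 to 4 lower at 48 h, 0 to 2 higher and 5 to 7 lower for the interaction, 8 to 9 higher and 0 lower from 24 h to 48 h in control cells, and 7 to 9 higher and 0 to 1 lower in deprived cells. The replicate block called 8 members higher and 1 lower at 24 h, 6 higher and 3 lower at 48 h, 1 higher and 7 lower for the interaction, and 9 higher in control cells over time. Samples with the same number deviated together in some pairs only (correlations of deviations from -0.075 to 0.32 between media), and not every sample correlated best with its own number, so the numbers were not taken to pair samples. EGR3 was called higher at 24 h and not called at 48 h, but upper-quartile scaling and a fit of only the groups compared did the opposite, with no call at 24 h (adjusted p = 0.0807 and 0.0734) and a lower call at 48 h (0.0428 and 0.0464). Library totals ended its 24 h call (0.0927), and no filter called it lower at 48 h (0.0382). The block also called 5 of the 13 other family genes higher at 24 h and 2 of the 5 corepressor genes lower. Depth limits EGR2 and EGR3 most, with at most 229 estimated counts per sample. Mean levels in CPM of the 10 genes were recomputed with RLE, upper-quartile and library-total scaling. Of these, 107 stayed within the SD of the reported group and 13 did not. The order of levels per kilobase was not recomputed.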
